A study of Helianthus annuus with 24 samples.

Results

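Sunflower (Helianthus annuus) sequences for 2 families of sucrose enzymes, the sucrose synthases and the sucrose phosphate synthases, were followed across nectary and leaf. A contig, an assembled transcript sequence, was taken as a member when its deposited Arabidopsis match was AT3G43190, AT5G20280 or AT4G10120, or when the description of that match named either enzyme. This gave 8 of 42063 contigs, carrying 5 Arabidopsis matches. RNA came from hand-dissected floral nectaries of 7 lines and from leaf, with 3 libraries in each of 8 groups. Of the interspecific crosses, lines 412 and 441 were labelled low, 452 and 456 medium, and 434 and 467 high for nectar production. ER, a maintainer line, carried no class in the series text. The plants that gave nectaries were about 40 days old and received 16 h of light and 8 h of dark at 23 °C. Every nectary library pooled about 50 nectaries taken from different plants 4 to 8 h after dawn. For leaf the labels give line 434 and the series text gives ER. Plant age, growth conditions and harvest time are not recorded for the leaf libraries.

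Sucrose synthase splits sucrose with UDP into UDP-glucose and fructose, in a reaction that can also run in reverse. Sucrose phosphate synthase joins UDP-glucose and fructose 6-phosphate into sucrose 6-phosphate, and sucrose phosphatase then removes the phosphate to give sucrose. In Arabidopsis nectaries, sucrose phosphate synthases and the sucrose exporter SWEET9 are required for nectar secretion.

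The 4 sucrose synthase contigs were Helianthus24021, which matches Arabidopsis SUS4 (AT3G43190), Helianthus35523 and Helianthus35522, which both match SUS3 (AT4G02280), and Helianthus24018, which matches SUS1 (AT5G20830). SUS1 and SUS4 are close relatives known in Arabidopsis for their response to low oxygen, and Helianthus24018 and Helianthus24021 shared the same UniRef match. The 4 sucrose phosphate synthase contigs were Helianthus28575, which matches SPS4F (AT4G10120), and Helianthus37345, Helianthus37347 and Helianthus37348, which all match SPS1F (AT5G20280). SPS1F and SPS4F are the main forms of the enzyme in Arabidopsis leaf. Helianthus37347 and Helianthus37348 matched 2 different UniRef entries that are protein fragments. Contigs that share a match may be separate genes or pieces of the same one, and reads could have been split between them.

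The values given were scaled by the upper quartile of their library and are whole numbers, with 1 read worth an estimated 0.678 to 1.5 units and an estimated 8.45 to 16.09 M reads per library. They carry no correction for contig length, so the values of different contigs do not compare amounts of transcript. Where a contig is said to have the highest value of those sharing a match, this refers to the uncorrected values. Changes are differences of log2(value + 1), which understates the change of low contigs, and calls were made with limma where p, adjusted by Benjamini and Hochberg's method over all contigs tested, was under 0.05. A p-value here reflects how much pools of nectaries varied. Replicates correlated at 0.793 to 0.974 on the log2 scale over all contigs, and 2 libraries stood apart from their own line. Replicate 3 of line 452 correlated with the other libraries of its line at 0.793 and 0.823 and listed 3903 contigs at 0, against at most 2603 in any other nectary library. Replicate 2 of line 456 correlated at 0.924 and 0.926 with libraries that correlated at 0.974 with each other. Results of the medium lines are given with and without both.

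A mean value of at least 10 over the libraries compared was required, and 6 of the 8 contigs passed in every comparison. Helianthus35522 lay between 0 and 17, and Helianthus24018 between 0 and 1, so neither was tested. Helianthus24018 was at 1 in replicates 2 and 3 of line 412 and at 0 in the other 22 libraries. Thus no sucrose synthase 1 match was detectable beyond about 1 read per library.

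**Figure D1:**
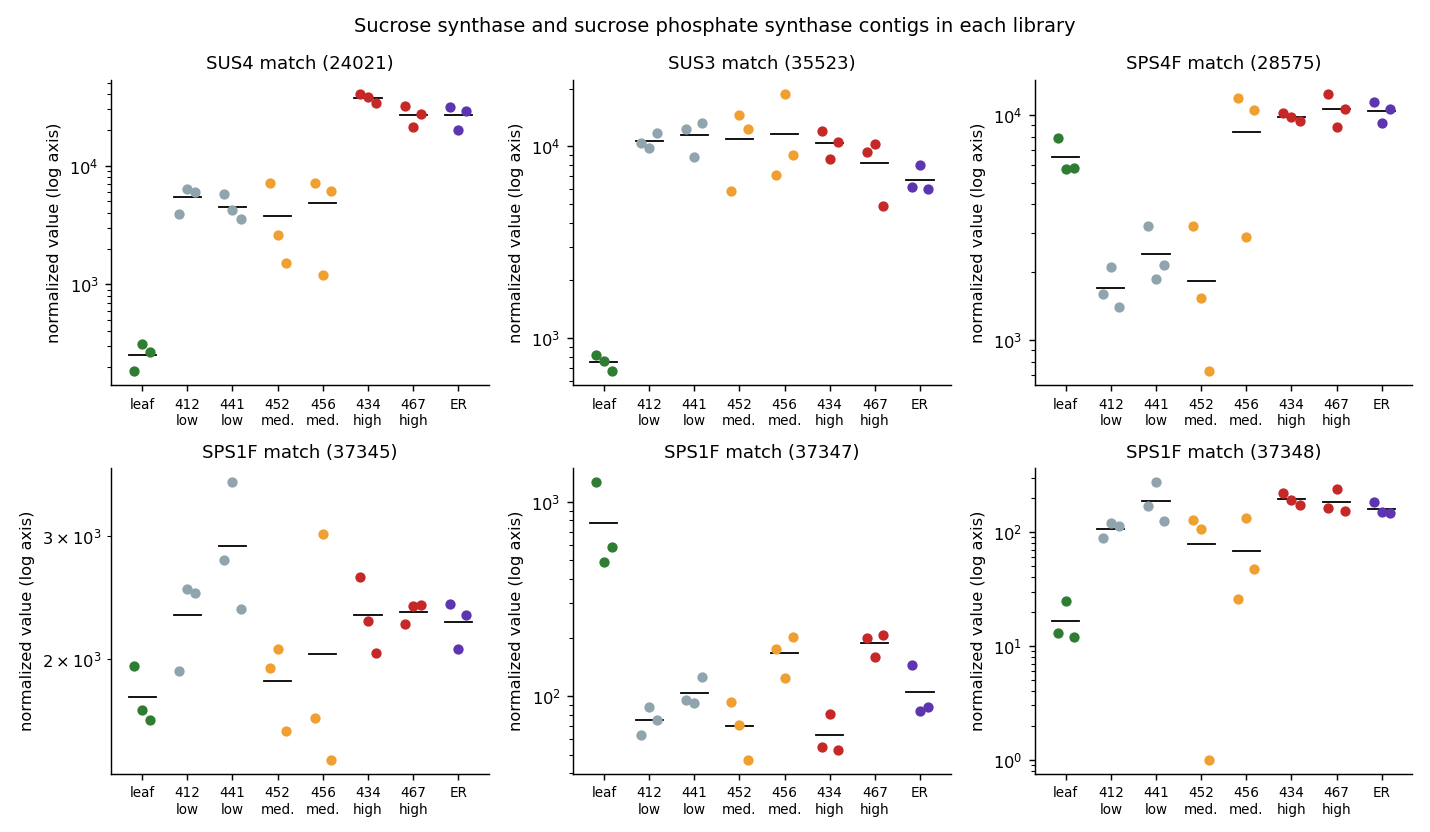
Normalized value (log axis) of each of the 6 tested contigs in every library, by group, with horizontal lines at the group means. The SUS4 contig lies between 185 and 311 in leaf and at 19874 or above in all libraries of lines 434, 467 and ER, while the SUS3 contig shows a step between leaf and nectary without a step between the nectary lines.

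Both tested sucrose synthase contigs were higher in nectary than in leaf. The SUS4 contig stood at 185, 311 and 268 in leaf replicates 1 to 3 and at 40544, 37640 and 34027 in the nectary of line 434. The groups were thus 37404 ± 3265 and 254.7 ± 64.0 (SD, n = 3 each), a 149-fold difference (log2 change 7.22, SE 0.52, adjusted p = 3.66e-10). Every one of the 21 nectary libraries, from 1191 upward, lay above every leaf library. The SUS3 contig stood at 820, 761 and 672 in leaf and at 12054, 8546 and 10564 in the nectary of line 434. Its change was 13.7-fold (log2 change 3.78, SE 0.34, adjusted p = 1.15e-08), and its lowest nectary library in any line, at 4862, also lay above leaf.

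The sucrose phosphate synthase contigs went in different directions. Helianthus37347 was lower in nectary, at 55, 81 and 53 against 1257, 492 and 581 in leaf (11.3-fold lower, log2 change -3.50, SE 0.32, adjusted p = 1.42e-08). Helianthus37348 was higher, at 221, 192 and 174 against 13, 25 and 12 (log2 change 3.54, SE 0.97, adjusted p = 0.00379). The third SPS1F contig, Helianthus37345, was not called, with values of 2624, 2267 and 2042 in nectary and 1955, 1693 and 1638 in leaf (log2 change 0.39, 95% interval -0.06 to 0.83, adjusted p = 0.123). The SPS4F contig was also not called, at 10177, 9762 and 9347 in nectary and 7875, 5753 and 5818 in leaf (log2 change 0.61, 95% interval -0.33 to 1.54, adjusted p = 0.247). Neither difference passed. The 3 libraries of leaf and the 3 of line 434 did not overlap in either contig. The share of all contigs without overlap was not counted, so this adds nothing to the calls. For SPS4F the direction holds for line 434, and against the mean of the 7 nectary lines leaf was higher (log2 change -0.47, adjusted p = 0.216, not called).

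In this comparison 3 of the 6 tested contigs were higher, against 39.6% of all 39981 contigs, and 1 was lower, against 22% of all contigs. With 61.6% called in either direction, the share of members called is near the background. The median change of all contigs was 0.48. After rescaling each library by its median ratio it was 0.01, and 48.7% of the called contigs were higher instead of 64.4%. On that scale the SUS4 contig changed by 6.75, the SUS3 contig by 3.31, Helianthus37348 by 3.09 and Helianthus37347 by -3.97, all still called. The uncalled values went to 0.13 for the SPS4F contig and to -0.08 for Helianthus37345, whose direction therefore flips. Fitted on these 6 libraries alone, both were called (adjusted p = 0.0078 for SPS4F and 0.0343 for Helianthus37345), as they were in the fit over all groups without the 2 libraries that stood apart (0.0316 and 0.0281). Helianthus37345 was also called when replicate 2 of line 456 alone was left out (adjusted p = 0.0393). When the nectary of ER took the place of line 434, each of the 6 contigs kept its direction and call, with log2 changes of 6.71 for SUS4, 3.15 for SUS3, 3.25 for Helianthus37348 and -2.79 for Helianthus37347.

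The tissues carried their labelled markers. Summed over 10 leaf marker contigs (Rubisco, Rubisco activase and light-harvesting genes), leaf held 596471 to 911892 and nectary 410 to 2286, with 0 to 3 of the 10 at 0 in a nectary library. Summed over 6 nectary marker contigs (CRC, SWEET9 and MYB21), leaf held 128 to 174 and nectary 29180 to 246763, with 2 or 3 of the 6 at 0 in a leaf library. These are bulk samples, so fewer cells of a type and less RNA per cell cannot be told apart.

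The 3 contigs that match SPS1F differed in their proportions between the organs. Taking Helianthus37345 in the same library as 100 percent, Helianthus37347 was at 29.1 to 64.3 percent in leaf and at 2.10 to 14.1 percent in nectary. Helianthus37348 was at 0.665 to 1.48 percent in leaf and, with the exception of replicate 3 of line 452 at 0.0633 percent, at 1.58 to 9.98 percent in nectary. The leaf and nectary libraries did not overlap in the first ratio, and in the second they overlapped only through that library. When the 3 contigs were summed under their shared match, SPS1F was no longer called in nectary against leaf, and 2 of 4 matches (SUS4 and SUS3) were. Over all matches 7230 were called in that setting. Matches are fewer than contigs, as only 18797 contigs carry one. The number of matches tested is not given, so 2 of 4 has no share beside it.

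**Figure D2:**
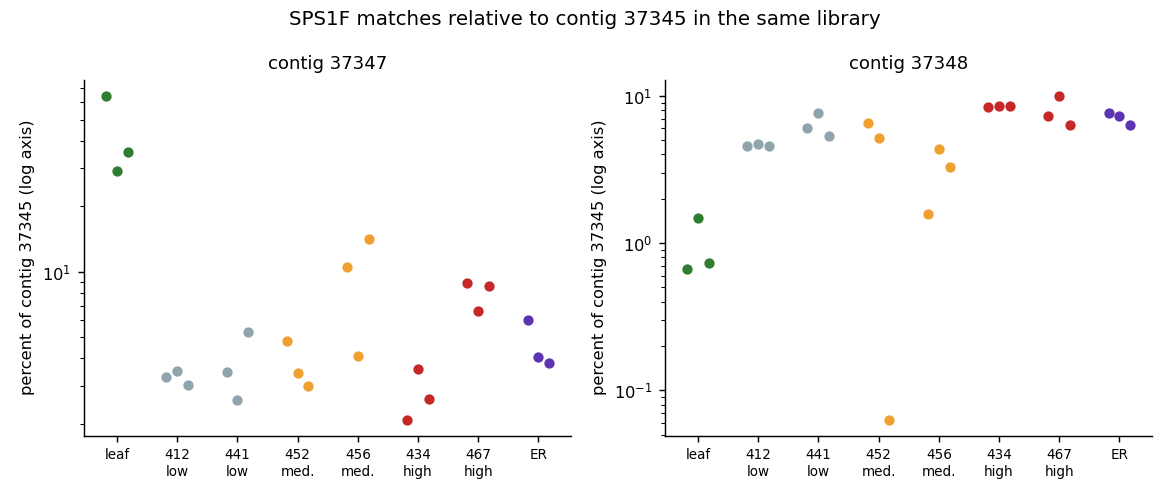
Values of Helianthus37347 and Helianthus37348 as a percentage of Helianthus37345 in the same library (log axes), with a point for each library. Leaf is highest in the first panel, at 29.1 to 64.3 percent, and near the bottom of the second, at 0.665 to 1.48 percent.

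Across the nectary lines, a SUS4 and an SPS4F contig separated the high from the low lines. The SUS4 contig stood at 40544, 37640 and 34027 in line 434 and at 31879, 21404 and 27467 in line 467. In the low lines it stood at 3921, 6361 and 6008 (line 412) and at 5810, 4209 and 3548 (line 441). No library of a high line came near the low lines, and the means were 32160 ± 6951 and 4976 ± 1218 (SD, n = 6 each; 6.49-fold, log2 change 2.70, SE 0.39, adjusted p = 3.39e-05).

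The SPS4F contig stood at 12413, 8824 and 10603 in line 467, close to the values of line 434 given above. In the low lines it stood at 1602, 2107 and 1403 (line 412) and at 3222, 1862 and 2145 (line 441). Here too the libraries did not overlap, with means of 10188 ± 1255 and 2057 ± 639 (SD, n = 6 each; 5.10-fold, log2 change 2.35, SE 0.33, adjusted p = 2.75e-05). Leaf, at 5753 to 7875, lay between the low and the high lines for this contig.

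The other 4 tested contigs were not called between high and low lines. The SUS3 contig was at 9274 ± 2468 in the high and 11049 ± 1666 in the low lines (log2 change -0.29, 95% interval -0.84 to 0.25, adjusted p = 0.424). Helianthus37345 was at 2325 ± 193 and 2608 ± 553 (log2 change -0.14, 95% interval -0.48 to 0.19, adjusted p = 0.53). Both intervals lie inside a doubling in either direction, whereas that of Helianthus37348 (log2 change 0.44, -1.07 to 1.96, adjusted p = 0.683) does not. The latter rests on a spread shared by all nectary lines, among them replicate 3 of line 452 at a value of 1. Fitted by limma on the high and low libraries alone, Helianthus37348 had an adjusted p of 0.0646. Without the 2 libraries that stood apart it was 0.0631, also not called. For Helianthus37347 the change was 0.29 (-0.14 to 0.71, adjusted p = 0.308).

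Thus 2 of 6 tested contigs were higher in the high lines, against 12.3% of all 38457 contigs, and 0 were lower, against 18.9%; in either direction 31.2% of all contigs were called. A stricter test took the line as the unit, with 2 lines a class. By this test the SUS4 contig kept its call (adjusted p = 0.0244) and the SPS4F contig did not (adjusted p = 0.208), when 300 contigs in place of 11983 were called over the whole table. Leaving out any single library kept both calls.

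**Figure D3:**
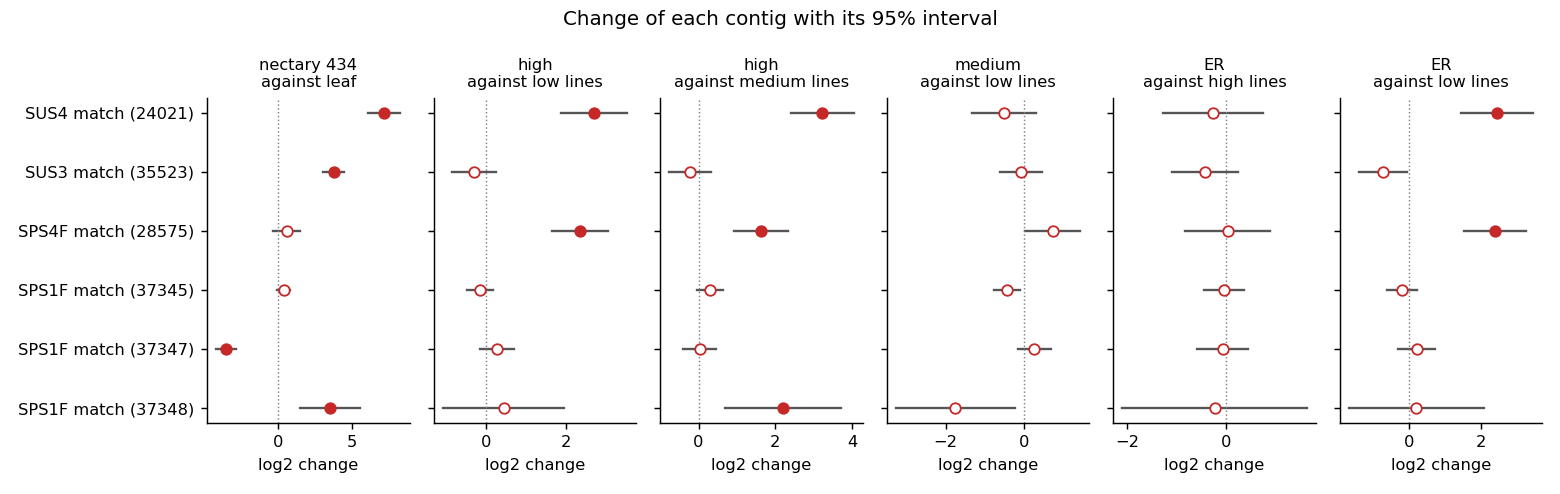
Log2 change of the 6 tested contigs with its 95% interval in 6 comparisons, with filled circles for called contigs (adjusted p under 0.05) and open circles for the others; each panel has its own scale. The SUS4 and SPS4F contigs are filled for high against low, high against medium and ER against low lines, at changes of 1.62 to 3.22.

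Some markers also differed between these classes. The nectary marker sum was 60299 to 189274 in the high and 39571 to 59000 in the low lines, and 3 of its 6 contigs were called higher in the high lines. Those were SWEET9 (Helianthus17324), at 87454 ± 53275 against 19348 ± 7682, and 2 MYB21 contigs, MYB21 being a regulator of late flower development. In line 434 SWEET9 alone averaged 135090 where the sum was 166238 to 189274, so the sum there mostly follows this contig. The contig of CRC with the highest value, Helianthus1659, a match of a regulator of nectary formation, was at 20564 to 23789 in the high and 21421 to 27612 in the low lines. The 6 contigs of the pollen and tapetum list matched only 2 of its 3 genes, both malectin receptor kinases. They were not absent from leaf, where their sum was 680 to 696. In nectary of line 434 against leaf, 2 of them were higher and 2 lower. Of these 6 contigs, 4 were lower and 1 was higher in the high lines, and their sum was 1197 to 1728 in the high and 1331 to 3529 in the low lines. The phloem marker sum, of interest because sucrose synthase is expressed in phloem companion cells, was 10745 to 13560 in the high and 10864 to 16305 in the low lines. The leaf marker sum was 443 to 1525 in the high and 423 to 914 in the low lines. Among 7 tested leaf marker contigs the high lines had 2 called higher and 3 called lower, the former including Rubisco activase Helianthus32271 at 411 ± 222 against 43.3 ± 20.1 (SD, n = 6 each; log2 change 3.15, adjusted p = 1.4e-06). The pollen, phloem and leaf sums overlapped between the classes and no sum was tested. The part of these markers in the results on the members was not tested.

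Among the medium lines, line 456 set the SUS4 and SPS4F contigs apart from each other in replicates 1 and 3, and line 452 did not. The SUS4 contig stood at 7141, 2614 and 1518 in line 452 and at 7088, 1191 and 6140 in line 456, within or below the range of the low lines except for the values 7141 and 7088. The SPS4F contig stood at 3203, 1538 and 727 in line 452 but at 11830, 2853 and 10528 in line 456. Line 456 therefore joined a SUS4 level like that of the low lines to an SPS4F level that, in replicates 1 and 3, lay among the high lines.

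Against the medium lines, the high lines were higher for the SUS4 contig (9.33-fold, log2 change 3.22, SE 0.39, adjusted p = 5.85e-06) and for the SPS4F contig (3.08-fold, log2 change 1.62, SE 0.33, adjusted p = 0.00108). The libraries did not overlap for SUS4 and did overlap for SPS4F. Without the 2 libraries that stood apart the changes were smaller, 2.56 for SUS4 (adjusted p = 4.05e-07) and 1.02 for SPS4F (adjusted p = 0.000494). Helianthus37348 was also higher in the high lines, at 152 to 238 against 1 to 132 (log2 change 2.20, SE 0.72, adjusted p = 0.0212). Its value of 1 came from replicate 3 of line 452, without which the change was 1.22 (adjusted p = 0.00341; 1.54, adjusted p = 2.5e-05, without both), and the call was lost without replicate 1 of line 456 (adjusted p = 0.0535) or when only the 12 libraries compared were fitted (0.082). Helianthus37345 gained a call without replicate 2 of line 456 (log2 change 0.46, adjusted p = 0.00819) and without both (0.40, adjusted p = 0.0144). In all 3 of 6 tested contigs were called, against 43.8% of all contigs. With the line as the unit, SUS4 kept its call (adjusted p = 0.0195) while SPS4F (0.21) and Helianthus37348 (0.0653) did not.

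Between the medium and the low lines limma called 0 of the 6 contigs, against 14.7% of all contigs, although 3 had an unadjusted p under 0.05. Those were Helianthus37345 (log2 change -0.44, adjusted p = 0.0723), Helianthus37348 (-1.76, adjusted p = 0.114) and the SPS4F contig (0.73, adjusted p = 0.153). The SUS4 contig changed by -0.52 (95% interval -1.34 to 0.29). Without the 2 libraries that stood apart, a choice made after the data were seen, the same 3 contigs were called. SPS4F was then higher in the medium lines (1.33, adjusted p = 7.45e-05), and Helianthus37345 (-0.55, adjusted p = 0.00395) and Helianthus37348 (-1.09, adjusted p = 0.00115) were lower. Leaving out a single library of line 452, or replicate 2 of line 456, gave 1 or 2 calls. Without replicate 3 of line 452 the SPS4F contig was called (adjusted p = 0.0278), without replicate 1 or 2 of that line Helianthus37348 was (0.0256 and 0.036), and without replicate 2 of line 456 SPS4F (0.0119) and Helianthus37345 (0.00215) were.

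Within the medium lines the SUS3 contig ran against the SUS4 contig. It stood at 5817, 14501 and 12285 in line 452 and at 7105, 18846 and 9018 in line 456. In each line, the library with the highest SUS4 value had the lowest SUS3 value, and replicate 2 of line 456 held both the highest SUS3 and the lowest SUS4 value of the 21 nectary libraries. That library also differed from replicates 1 and 3 of its line in every marker sum. Its nectary marker sum was 34460 against 100221 and 98684, its leaf marker sum 2286 against 702 and 819, its pollen and tapetum sum 4679 against 2638 and 2745, and its phloem sum 19708 against 9157 and 7742. SWEET9, a part of the nectary marker sum and most of it in replicates 1 and 3, stood at 7069 in replicate 2, against 66552 and 62574. Whether these markers have a part in the values of the members in that library was not tested.

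**Figure D4:**
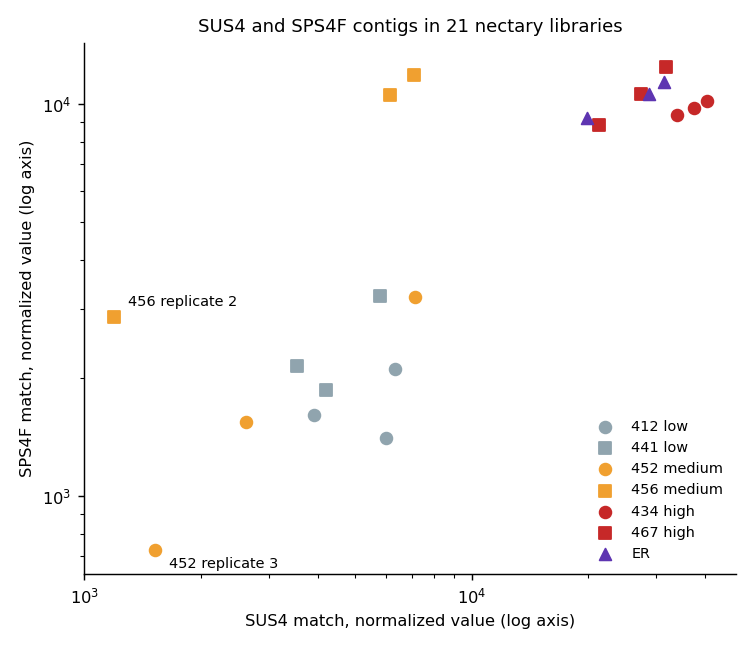
Normalized values of the SPS4F contig against the SUS4 contig in the 21 nectary libraries (log axes), with symbols for lines and colours for nectar class. Lines 434, 467 and ER lie together at the upper right, the low lines at the lower left, and replicates 1 and 3 of line 456 at the upper left, at SUS4 values of 7088 and 6140.

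Over the 21 nectary libraries, log2 values of the SUS4 and SPS4F contigs correlated at r = 0.825, and at 0.957 over the 15 libraries of the other 5 lines. The libraries of a line share its genotype, so the number of independent points is nearer to that of the lines. As deviations from line means the correlation was 0.952, and it was 0.695 without the medium lines. The SUS4 and SUS3 contigs correlated at -0.572 (-0.739 as deviations from line means, -0.203 without the medium lines). The values of a library share its scaling and depth. These correlations are descriptions.

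In the ER nectary the SUS4 and SPS4F contigs lay in or near the range of the high lines. SUS4 stood at 31397, 19874 and 28804 and SPS4F at 11368, 9217 and 10560 in ER. Compared with the low lines, ER was higher for SUS4 (5.40-fold, log2 change 2.43, SE 0.48, adjusted p = 0.000741) and for SPS4F (5.21-fold, log2 change 2.38, SE 0.41, adjusted p = 0.000205), so 2 of 6 were called against 28.1% of all contigs. With the line as the unit the SUS4 call held (adjusted p = 0.033) and the SPS4F call did not (0.283), ER being then a single line that is assumed to vary like the others. Markers differed here too. Against the low lines ER had 5 of 7 phloem marker contigs lower and 0 higher (sum 6962 to 8490 against 10864 to 16305), 3 of 6 pollen and tapetum contigs lower and 1 higher (1053 to 1306 against 1331 to 3529), 3 of 6 nectary contigs higher and 2 lower (180502 to 246763 against 39571 to 59000), and 1 of 7 leaf marker contigs higher and 2 lower (410 to 621 against 423 to 914). Their part in these results was not tested. Against the high lines limma called 0 of 6, against 15.5% of all contigs, and 0 had an unadjusted p under 0.05. There the log2 change was -0.27 for SUS4 (95% interval -1.27 to 0.74) and 0.03 for SPS4F (-0.82 to 0.89), intervals wide enough to hold a sizeable difference in either direction. The SUS3 contig in ER, at 6139, 8008 and 5995, lay below all 6 libraries of the low lines but was not called (log2 change -0.72, adjusted p = 0.104). It was called against the low lines when only these 9 libraries were fitted (adjusted p = 0.00619) or without the 2 libraries that stood apart (0.0368).

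Against the mean of all 6 crosses, which includes the high lines, ER was higher for the same 2 contigs of the 6, against 24.1% of all contigs, a background that drops from 9253 to 5965 contigs without replicate 3 of ER (SUS4 1.71, adjusted p = 0.00555; SPS4F 1.35, adjusted p = 0.00941). Without the 2 libraries that stood apart the changes were 1.49 (adjusted p = 9.86e-05) and 1.16 (adjusted p = 0.000123). The SPS4F call was lost without replicate 1 of ER (adjusted p = 0.0546), and with the line as the unit neither was called (0.0653 and 0.496), in a test where ER is 1 line and the spread comes from the crosses alone. The comparisons of ER with high lines, low lines and all crosses share the same 3 ER libraries.

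Lines of the same class could differ too, chiefly in Helianthus37347. This contig stood at 55, 81 and 53 in line 434 but at 199, 158 and 205 in line 467 (log2 change -1.57, SE 0.29, adjusted p = 0.000778). Those libraries did not overlap, and it was the one member called of 6, against 10.4% of all contigs. It stood at 93, 71 and 47 in line 452 and at 174, 124 and 202 in line 456 (log2 change -1.26, SE 0.29, adjusted p = 0.00571). The SPS4F contig was called between these medium lines as well (log2 change -2.21, adjusted p = 0.00329), so 2 of 6 were, against 11.6% of all contigs. Fitted on the 6 medium libraries alone, neither call held (adjusted p = 0.167 and 0.219). Without the 2 libraries that stood apart both held (-1.20, adjusted p = 0.00695, and -2.33, adjusted p = 2.24e-05). Helianthus37348 then went from -0.88 (adjusted p = 0.642) to 1.71 (adjusted p = 0.00122), which made 3 of 6 called. Over all contigs 7572 were then called, in place of 4473.

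For line 412 against 441 limma called 0 of 6, against 5.98% of all contigs (2298, or 3655 without replicate 3 of line 452), and 0 had an unadjusted p under 0.05. Helianthus37347 was at 63, 88 and 75 in line 412, at 96, 92 and 125 in line 441 and at 144, 84 and 88 in ER. The libraries of lines 456 and 467 thus stood at 124 to 205 and those of the other 5 lines at 47 to 144, all below the lowest leaf library at 492.

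A test for any difference among the 7 nectary lines called 3 of 6 contigs, against 50.6% of all contigs. These were SUS4 (adjusted p = 2.38e-05), SPS4F (3.77e-05) and Helianthus37347 (0.000632). The SUS3 contig (adjusted p = 0.398), Helianthus37345 (0.237) and Helianthus37348 (0.158) were not called. Without the 2 libraries that stood apart Helianthus37345 and Helianthus37348 were called too (0.00938 and 2.97e-05). Helianthus37345 was likewise called without replicate 2 of line 456 (0.0106), and Helianthus37348 without replicate 1 (0.0368) or replicate 3 (0.00677) of line 452.

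Ordered by line mean, the SUS4 contig fell from line 434 (37404) through 467 (26917) and ER (26692) to 412 (5430), 456 (4806), 441 (4522), 452 (3758) and leaf (254.7). Neighbours in this order overlapped in their libraries except 434 and 467, ER and 412, and 452 and leaf. For the SPS4F contig the order was 467, ER, 434, 456, leaf, 441, 452 and 412, with means from 10613 to 1704. The only neighbours whose libraries did not overlap were leaf, at 5753 to 7875, and line 441, at 1862 to 3222. The SUS3 contig ran from 11656 in line 456 to 6714 in ER, then to 751 in leaf. Its nectary lines overlapped from neighbour to neighbour.

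Of the 6 tested contigs, Helianthus37345 had the narrowest relative range over the nectary libraries. It ran from 1434 to 3583 over the nectary libraries and from 1638 to 1955 in leaf, so that leaf lay inside the nectary range. Its values in lines 412, 441, 452 and 456 were 1924, 2518 and 2490, then 2769, 3583 and 2361, then 1940, 2068 and 1579, then 1648, 3020 and 1434. In lines 434, 467 and ER they were 2624, 2267 and 2042, then 2244, 2384 and 2387, then 2398, 2069 and 2310. The lines with the widest spread were 441 and 456, and replicate 2 of line 456 again stood highest of its line.

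Helianthus37348 was low throughout. It stood at 88, 119 and 113 in line 412, at 168, 273 and 126 in line 441, at 127, 107 and 1 in line 452 and at 26, 132 and 47 in line 456. In line 467 it stood at 163, 238 and 152, and in ER at 182, 151 and 147. A single library, replicate 3 of line 452 at about 1 read, lay under every leaf value of this contig.

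Genes that act beside these enzymes were counted in lists written from Arabidopsis gene identifiers. Sucrose phosphatase, which completes the synthesis of sucrose, was matched by 3 contigs. In the nectary of line 434 the one with the highest value, Helianthus19316, was higher than in leaf (1897 ± 154 against 324.3 ± 58.8, SD, n = 3 each; log2 change 2.56, adjusted p = 5.59e-11) and Helianthus19337 was lower (193.7 ± 17.5 against 310.7 ± 37.0; -0.68, adjusted p = 0.0108). Helianthus19316 was also higher in the high than in the low lines, by a small margin (1770 ± 180 against 1431 ± 114, SD, n = 6 each; log2 change 0.30, adjusted p = 0.0446).

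Of 17 contigs for the supply of UDP-glucose and fructose 6-phosphate, 5 were higher in nectary than in leaf, 8 were lower and 4 were not called, where 39.6% of all contigs were higher and 22% lower (median change 0.04, against 0.48 for all contigs). Lower were both contigs of cytosolic fructose-1,6-bisphosphatase, the step that turns exported triose phosphates into sucrose precursors in leaf. Of these Helianthus19283 was at 330.3 ± 71.6 (SD, n = 3) against 7856 ± 2314 in leaf, a log2 change of -4.55 (adjusted p = 3.55e-10), and Helianthus19302 was at 2.67 ± 2.08 against 406 ± 142. A contig of the enzyme that makes and breaks the regulator fructose 2,6-bisphosphate, Helianthus11679, was listed at 0 in all 3 nectary libraries of line 434 and at 174.7 ± 39.4 in leaf. Higher were 2 contigs matching a cytosolic phosphoglucomutase (Helianthus35098, 2.06, and Helianthus35099, 2.01) and a UDP-glucose pyrophosphorylase contig (Helianthus34855, 1.53). Contigs of other phosphoglucomutase matches were lower (Helianthus35100, -1.05, adjusted p = 0.000122, Helianthus39748, -4.16, and Helianthus39749, -2.18). UDP-glucose pyrophosphorylase interconverts UDP-glucose, the shared substrate of both families, and glucose 1-phosphate.

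Between high and low lines, 7 of 16 tested contigs of that list were higher, 3 were lower and 6 were not called, where 12.3% of all contigs were higher and 18.9% lower, so the share of lower contigs is at the background (median 0.15, against -0.01 for all contigs). The UDP-glucose pyrophosphorylase contigs Helianthus34855 (540 ± 121 against 179.7 ± 61.1, SD, n = 6 each; log2 change 1.62, adjusted p = 0.000904) and Helianthus34857 (673.2 ± 168 against 286.3 ± 41.8; 1.21, adjusted p = 4.39e-05) were among those that rose. Helianthus39748, matching the plastid phosphoglucomutase, was lower (107.3 ± 11.8 against 157 ± 48.7; -0.49, adjusted p = 0.0416), as was Helianthus11675, a second contig for the fructose 2,6-bisphosphate enzyme (-0.54, adjusted p = 0.0437).

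Hexokinases and fructokinases phosphorylate the hexoses that sucrose cleavage releases. Of 13 contigs, 5 were higher and 3 lower in nectary than in leaf (median 0.56), and 5 were higher and 0 lower in the high than in the low lines, with 8 not called (median 0.36). The shares in nectary against leaf are near the 39.6% and 22% of all contigs, and 12.3% of all contigs were higher in the high lines. The 3 with the largest changes between high and low lines all match hexokinase 2. They were Helianthus17565 (677.7 ± 60.8 against 237.8 ± 99.0, SD, n = 6 each; log2 change 1.61, adjusted p = 0.000149), Helianthus17566 (1.01) and Helianthus17564 (0.95). Lower in nectary than in leaf were 2 fructokinase-like contigs, whose Arabidopsis matches belong to the plastid transcription machinery (Helianthus21679, -4.21, and Helianthus15714, -1.43), and a further hexokinase contig (Helianthus17580, -0.69). In ER, Helianthus17565 stood at 259, 279 and 244, below the 596 to 750 of the high lines.

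Cytosolic invertases split sucrose into glucose and fructose in the same compartment as sucrose synthase. Of 4 contigs, the same 2 were higher in both comparisons and none was lower, where 39.6% of all contigs were higher in nectary than in leaf and 12.3% in high than in low lines. Helianthus33000 and Helianthus33001, which share a neutral invertase match, rose by 2.99 and 1.21 in nectary of line 434 against leaf and by 0.92 (adjusted p = 0.0352) and 0.57 (adjusted p = 0.000303) in high against low lines.

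SnRK1 is a kinase that phosphorylates sucrose phosphate synthase in species such as spinach. Of 15 tested contigs for its subunits, 6 were higher and 2 lower in nectary than in leaf, with 7 not called (median 0.40), a share of higher contigs near the 39.6% of all contigs. The catalytic subunit contig Helianthus18722, a match of KIN10, was at 8859 ± 545 (SD, n = 3) in nectary of line 434 against 673.3 ± 134 in leaf, a log2 change of 3.73 (adjusted p = 1.49e-10). Between high and low lines 2 were higher and 13 were not called (median 0.05), again near the background of 12.3%. Those 2 also match KIN10 (Helianthus18730, 0.78, adjusted p = 0.0344, and Helianthus41424, 0.73, adjusted p = 0.0347). Neither was called in nectary against leaf (adjusted p = 0.517 and 0.163). Helianthus18722, which has far higher values, was not called between high and low lines (0.31, adjusted p = 0.222).

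**Figure D5:**
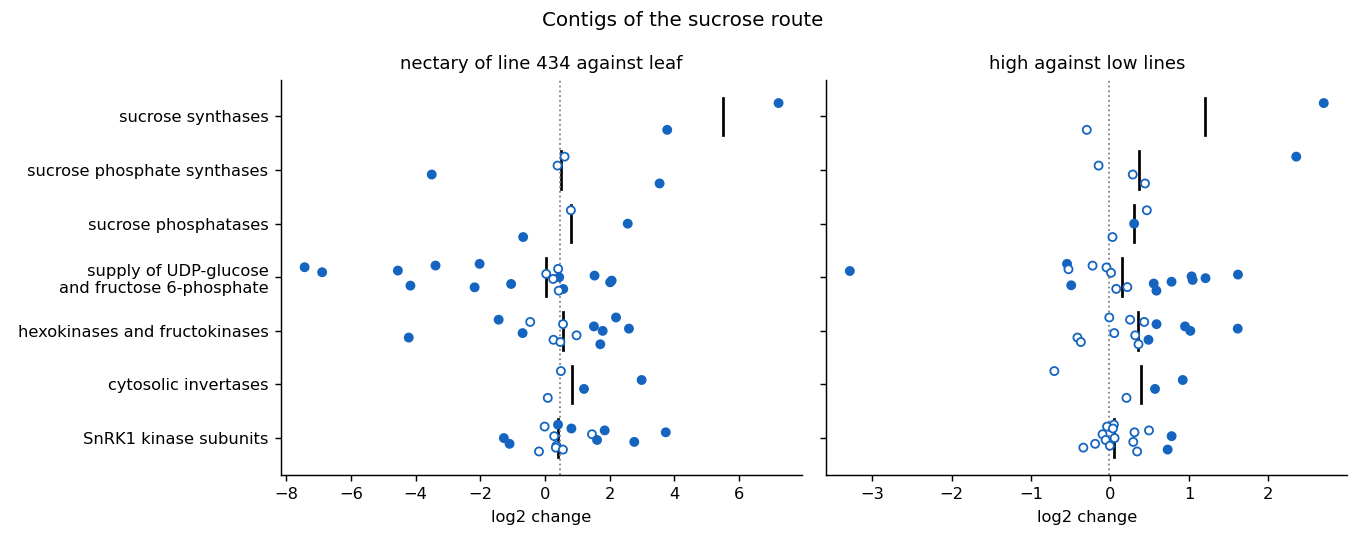
Log2 change of each tested contig of 7 gene lists in nectary of line 434 against leaf and in high against low lines, with filled circles for called contigs, black bars at list medians and a dotted line at the median of all contigs. For supply genes the circles spread to both sides of the dotted line in both panels, and the list medians are 0.04 and 0.15.

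For export and cleavage outside the cell, 4 of 6 contigs were higher and 1 lower in nectary of line 434 than in leaf, where 39.6% and 22% of all contigs were. Between high and low lines 3 were higher and 2 were lower, where 12.3% and 18.9% of all contigs were. The higher contigs were SWEET9 (Helianthus17324, 1.99), a cell wall invertase (Helianthus23193, 1.72) and Helianthus32544 (1.68, adjusted p = 0.00739). High and low libraries overlapped for SWEET9 and Helianthus32544 and not for Helianthus23193. In line 434 alone these 3 contigs averaged 135090, 186800 and 10091, above the means of both high lines together (87454, 132640 and 6323.5). Of the 6 contigs, 2 were higher and 1 lower in line 434 than in 467, where 10.4% of all contigs were called. Calls of these contigs with the line as the unit are not given. Helianthus32544 matches beta-fructofuranosidase 5 and was at 6323.5 ± 4152.5 against 1669.7 ± 588.0 (SD, n = 6 each). The lower contigs share that match but had lower values (Helianthus37004, -0.71, and Helianthus37710, -1.57). A further contig of that match, Helianthus40841, was not called (-0.21). Log2 values of the SUS4 contig over the 21 nectary libraries correlated at 0.855 with SWEET9 (Helianthus17324) and at 0.843 with the cell wall invertase CWINV2 (Helianthus23193), as a description of libraries that share lines, scaling and depth. Of 2 contigs that match the phloem loader SUC2, Helianthus11104 was at 18.7 ± 8.14 in nectary of line 434 and 4462 ± 984 in leaf (SD, n = 3 each). The other, Helianthus38937, was at 9585 ± 1095 and 6274 ± 1799 and was not called (log2 change 0.64, adjusted p = 0.0863). Of all 7 phloem marker contigs, 2 were higher in nectary of line 434 than in leaf, 1 was lower and 4 were not called. Those higher were Helianthus33414 (2.14) and Helianthus36028 (1.03), which both match a homeodomain-like protein.

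Over the same 21 libraries, 11708 contigs with an Arabidopsis match and a mean of at least 100 were searched for the 5 whose log2 values followed each member most closely. Those nearest to the SUS4 contig matched SCARECROW-like 14 (r = 0.98), a protein kinase (0.979), a transmembrane protein (0.972), a pectin methylesterase (0.97) and the plastid glucose 6-phosphate translocator GPT1 (0.969). Nearest to the SPS4F contig were an oxygenase (0.961), a protein of unknown function in the DUF569 family (0.946), phospholipid N-methyltransferase (0.944), CID11 (0.944) and the glycerol 3-phosphate acyltransferase GPAT8 (0.942). No contig was among the 5 nearest to both.

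The SUS3 contig had less close followers, led by the tonoplast aquaporin TIP1-1 (r = 0.85), and Helianthus37345 still less close ones, from 0.777 for a zinc finger MYND domain protein to 0.761. The 21 libraries come from 7 lines and share scaling and depth within a library, so these correlations are a description.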

How the data were processed

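Nectary and leaf RNA from sunflower was made into 24 TruSeq RNA v2 libraries and read as 50-base pairs in 2 lanes, giving 330 M reads, per the labels' protocols. What the authors deposited is a normalized expression score: per the file headers each library was scaled by its upper quartile, and the values are whole numbers. The header of ER replicate 3 does not mention this scaling, and the upper quartile of its values above 0 is 201.25, where the others have 201. Which aligner, assembler and counter were used is not given in the sources used here. A further 16 columns, of means and SDs by group, were left aside. Contigs are named by the deposited matches (44.7% have one in Arabidopsis), and since the table gives neither their lengths nor their sequences, no sequence is shown.

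The spacing of low values gave the value of 1 read (largest error 0.0411% in 12 simulated libraries). The scores are not counts, so a linear model was used: limma 3.58.1 (R 4.3.3) on log2(value + 1), with 1 mean per group and moderated variances that follow a trend, for contigs whose mean is at least 10. All 24 libraries entered the leaf comparison and the 21 nectary libraries the others. Calls used a Benjamini-Hochberg adjusted p-value, taken over every contig tested, under 0.05. The scripts were tested on simulated data and ran in Python 3.11.15 with pandas 2.3.3, numpy 2.4.6 and scipy 1.17.1; matplotlib 3.10.9 drew the figures.

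The members and lists were chosen with earlier results of these data known. Setting ER against high and against low lines was decided with the data already in view. Members with a mean of at least 100 in any group are given library by library. From every other list, up to 3 called contigs per direction could be named, those with the largest changes and a mean of at least 100 in the higher group. Further contigs were named where they share a match or an enzyme with a named contig, or belong to a marker list. The 5 closest followers of a member were taken by Pearson correlation.

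Alternatives were a constant of 5 in the log, a minimum mean of 50 or none, median-ratio scaling, a block for the replicate number, a fit to the compared groups, the line as the unit, summing contigs that share a match, other nectaries against leaf, and leaving out single libraries or the 2 that stood apart.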

Additional observations from a re-analysis of the deposited data

Results flagged for a closer look

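Within the nectar classes, 22 sets of 6 libraries were examined for a library far from the other 5, of which chance would mark about 1 in 20, and 1 set was marked. Helianthus35522, the low SUS3 contig, stood at 17 in replicate 2 of line 456 and at 7 to 10 in the other 5 medium libraries, a gap of 0.7 of the whole range where 0.625 is the limit for 6 samples. The contig did not pass the filter on low values and was not tested. The other contig of the same match, Helianthus35523, also had its highest value, 18846, in that library.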

How the results depend on the processing

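Of 1908 values of single members recomputed under the alternatives, 1825 kept their side of the threshold and, where they had one, their direction. A call was lost by 11 and gained by 22, and 50 changed sign, none of which had been called. Part of this was fixed in advance. Each group has its own mean, so leaving out a library of a group outside the comparison cannot move the log2 change. The same holds for fitting only the compared groups and for the line as the unit. The test for any difference among lines gives no direction. The 1825 is therefore no measure of how firm the results are.

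Counts of called members changed as follows; the fewer libraries, lines or matches entering are part of each alternative's construction. Summed over contigs of a match, 2 of 4 matches were called for nectary of line 434 against leaf, 0 for line 434 against 467 and 1 for line 452 against 456. Over all matches the counts in these comparisons were 7230, 959 and 963, out of a number of matches not given here. With the line as the unit the counts were 1 for high against low, 1 for high against medium, 0 for ER against the crosses and 1 for ER against low lines. Over all contigs they were 300, 605, 477 and 575. On the compared groups alone 452 against 456 gave 0, where 1327 of all contigs were called. Without a filter 412 against 441 gave 1 (Helianthus24018, at 0 or 1 read). With a single library, or both libraries that stood apart, left out, counts ran from 0 to 3 for medium against low lines (3 without both), from 1 to 2 for ER against the crosses and from 3 to 5 for any difference among lines (5 without both).

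Signs of uncalled values changed with median-ratio scaling for Helianthus37345 in nectary against leaf (-0.083), 452 against 456 (0.012) and ER against the crosses (-0.032), for Helianthus35523 in medium against low lines (0.010), and for Helianthus37347 in high against medium lines (-0.045) and ER against the crosses (-0.0094). With the mean of 7 nectary lines against leaf, Helianthus28575 went to -0.47. The cause was not tested.

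With libraries left out in the same way, medium against low lines ran from -0.83 to 0.14 for Helianthus24021 and from -0.35 to 0.12 for Helianthus35523. High against medium lines ran from -0.42 to 0.059 for Helianthus35523 and from -0.20 to 0.14 for Helianthus37347. Line 452 against 456 ran from -1.11 to 0.21 for Helianthus24021, from -0.37 to 0.34 for Helianthus35523, from -0.27 to 0.38 for Helianthus37345 and from -1.92 to 1.71 for Helianthus37348, the last without both libraries (adjusted p = 0.00122; 1.08, adjusted p = 0.119, without replicate 3 of line 452 alone). Line 434 against 467 ran from -0.23 to 0.012 for Helianthus28575, from -0.12 to 0.061 for Helianthus37345 and from -0.017 to 0.31 for Helianthus37348, and 412 against 441 from -0.27 to 0.018 for Helianthus35523. ER against high lines ran from -0.038 to 0.11 for Helianthus28575, from -0.084 to 0.022 for Helianthus37345 and from -0.32 to 0.067 for Helianthus37347. ER against low lines ran from -0.031 to 0.35 for Helianthus37347. ER against the crosses ran from -0.034 to 0.073 for Helianthus37345 and from -0.21 to 0.17 for Helianthus37347.

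The replicate numbers did not pair the libraries (correlations of -0.287 to 0.26 over 84 same-numbered pairs, and 10 of 24 libraries closest to their own number). The replicate block changed no call of a member, and the count over all contigs went from 11983 to 11904 for high against low lines. Counts over all contigs moved by more than 1.5 times with the line as the unit (300 for high against low, 605 in place of 16829 for high against medium, 4 in place of 5642 for medium against low, 477 in place of 9253 for ER against the crosses, 337 in place of 5972 for ER against high, 575 in place of 10816 for ER against low). On the compared groups alone they were 18292 for high against low, 11074 for high against medium, 6207 in place of 3996 for 434 against 467, 1327 in place of 4473 for 452 against 456 and 3776 in place of 2298 for 412 against 441. Without both libraries that stood apart they were 18315, 6357, 7572 and 4364 for high against low, 434 against 467, 452 against 456 and 412 against 441, and 14135 and 16655 for ER against the crosses and against low lines. Leaving out replicate 3 of line 452 alone gave 3655 for 412 against 441, and leaving out replicate 3 of ER gave 5965 for ER against the crosses. With the line as the unit ER is 1 line, assumed to vary like the others. A mean of at least 50 left 3421 for medium against low, 3666 for ER against high, 2432 for 434 against 467, 2872 for 452 against 456 and 1360 for 412 against 441, with fewer contigs tested. At about 1 unit per read, the values of Helianthus24018 and Helianthus35522 lie too near the level of a few reads to be compared.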
